A study of Rattus norvegicus with 9 samples.

Results

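Natriuretic peptides, the enzymes that process them and their receptors were followed through RNA-seq of the rat left ventricle. The 8 genes were taken by gene name, and the estimated counts of their 15 transcripts were summed by gene. They are Nppa, Nppb and Nppc (the peptides), Corin and Furin (processing enzymes), and Npr1, Npr2 and Npr3 (receptors), 8 of 22608 genes in the tables. The samples came from Sprague-Dawley rats, 8 weeks old at the start, that were given saline, Ang II or Ang II+NaBu for 28 days, and each of the 3 groups has 3 libraries. Ang II is angiotensin II, a pressor hormone, and NaBu is sodium butyrate, which blocks histone deacetylases. The labels give no dose, no route and no sex. They do not state that libraries within a group represent different animals, so p-values measure only the spread between these samples, which may be technical. The Ang II+NaBu group received both agents, and no group among these samples received NaBu alone.

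Natriuretic peptides are hormones that the heart makes in response to stretch. ANP (from Nppa) comes chiefly from the atria and BNP (from Nppb) from both atria and ventricles, while CNP (from Nppc) is mainly a product of endothelium, bone and brain. The membrane protease corin cuts pro-ANP and the proprotein convertase furin cuts pro-BNP. The receptors NPR-A (Npr1, for ANP and BNP) and NPR-B (Npr2, for CNP) make cyclic GMP inside the cell, which relaxes vessels and restrains myocyte growth. NPR-C (Npr3) binds all the peptides, removes them from the circulation and couples to inhibitory G proteins.

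The deposited libraries held 29284780 to 49865446 estimated counts each, and 15467 genes passed the filter on low counts. As a fixed setting, 1 sequenced fragment was taken to be worth about 4 estimated counts. Levels are in CPM, counts scaled to the library total with edgeR's TMM factors, and changes are log2 fold changes with their standard error (SE). Transcript lengths were not used here, so levels are compared between libraries and not between genes. Saline replicate 2 stood apart from the other 8 libraries through atrial transcripts. All 8 atrial markers were highest in it, with a summed level of 2520 CPM against 58.0 to 151 CPM, and 4 of 5 ventricular markers were lowest in it, with a sum of 6270 CPM against 15400 to 19900 CPM. Saline replicate 3 held Myl7, Myl4 and Bmp10 at 27.2, 17.3 and 22.2 CPM, while all 3 were under 1 CPM in each Ang II library, and Sln was listed at 0 in all 3 Ang II libraries and in 2 of 3 Ang II+NaBu libraries. Dkk3, another atrial marker, was at 79.4 CPM in saline replicate 1, 81.3 CPM in Ang II replicate 1 and up to 102 CPM with Ang II+NaBu. The fold changes of the tested genes among the 8 against saline are therefore also given without saline replicate 2. For the lists of pathway genes this was done for some values only. Other values against saline are from all 9 libraries unless stated.

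The promoters of Nppa and Nppb are shown because these adjacent genes on chromosome 5 encode the 2 cardiac peptides, and because their levels correlated at only -0.12 over the 9 libraries (0.30 without saline replicate 2). The sequences come from RefSeq's GRCr8 assembly, in which 6 of the 8 genes had a promoter entry (Furin and Npr2 had none). Both are on the + strand, at chr5:163711934-163712183 for Nppa (250 bases) and chr5:163699758-163699954 for Nppb (197 bases, ending before the first annotated base of the gene). Capitals mark matches, on either strand, to the GATA box (AGATAA or TGATAA), the M-CAT element (GGAATG) and the TATA box (TATAAA).
Nppa: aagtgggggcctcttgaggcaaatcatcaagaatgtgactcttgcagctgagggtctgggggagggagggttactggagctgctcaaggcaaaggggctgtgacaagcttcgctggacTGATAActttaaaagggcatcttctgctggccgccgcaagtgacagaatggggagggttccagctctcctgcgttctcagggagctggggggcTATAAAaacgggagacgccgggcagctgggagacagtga
Nppb: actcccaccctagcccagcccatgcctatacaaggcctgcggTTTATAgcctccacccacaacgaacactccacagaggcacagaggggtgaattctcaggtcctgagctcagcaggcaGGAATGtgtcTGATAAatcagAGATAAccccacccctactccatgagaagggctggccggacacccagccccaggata
Positions below count back from the start site of the promoter entry. For Nppb that site lies downstream of the first annotated base of the gene. Its positions therefore do not count from the end of its 197 printed bases, and its distances are not compared with those of Nppa. The Nppa window held 1 GATA match from -132 to -127 and a TATA match from -39 to -34. Nppa also held AAGTG, the core of NKX2-5 sites, from -250 to -246 and from -95 to -91. The Nppb window held an M-CAT match from -131 to -126 followed by a pair of GATA matches, from -121 to -116 and from -110 to -105, and a TATA match on the other strand from -208 to -203. Of 33469 promoters read over the same 250 bases, 16.9% held a GATA match, 12.1% an M-CAT match, 12.9% a TATA match and 40.6% an AAGTG match. A search for strict patterns of the CArG box and the MEF2 box matched nothing in either window, and these patterns were in 1.5% and 3.0% of all promoters. Sites with a mismatch to the pattern were not searched for, so such sites may be present. A match is a description of the letters, not a measured binding site.

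Of the peptides, Nppb was measured at 159, 125 and 135 CPM in saline replicates 1, 2 and 3. It was at 125, 99.9 and 137 CPM in Ang II replicates 1, 2 and 3. With Ang II+NaBu it was at 175, 192 and 221 CPM in replicates 2, 4 and 6. Every Ang II+NaBu library was above every library of the other groups, while the saline and Ang II libraries overlapped. The gene rested on about 860 to 2659 fragments per library, if 1 fragment is worth about 4 estimated counts.

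Nppa behaved differently. It was at 55.4, 3460 and 186 CPM in saline replicates 1, 2 and 3. It was at 51.5, 22.9 and 34.8 CPM in the Ang II libraries and at 80.6, 69.5 and 47.7 CPM in the Ang II+NaBu libraries. Saline replicate 2 was 18.6 times as high as the next library, saline replicate 3, and 64.8 times the median of the other 8. Without it, the 8 libraries spanned 22.9 to 186 CPM and the saline value at 55.4 CPM lay among the Ang II+NaBu values. Nppc was listed at 5, 4 and 0 estimated counts in saline, at 0, 7 and 0 in Ang II and at 0, 4 and 5 in Ang II+NaBu. All of these are under 12 estimated counts, taken as the level of 3 fragments, so Nppc was not detectable at this depth in any group and entered no test.

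Of the enzymes, Corin, the cardiac protease that activates pro-ANP, was at 94.1, 292 and 83.7 CPM in saline replicates 1, 2 and 3. It was at 91.2, 99.6 and 92.7 CPM with Ang II and at 116, 85.8 and 112 CPM with Ang II+NaBu. Apart from saline replicate 2, no library was over 116 CPM. Furin, a convertase found in most cells, stayed within 75.0 to 106 CPM over all 9 libraries. Its group means were 86.1 ± 10 CPM in saline, 90.5 ± 3.89 CPM in Ang II and 95.4 ± 11.7 CPM in Ang II+NaBu (SD, n = 3), and these ranges overlapped.

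Of the receptors, Npr1, which signals for ANP and BNP, was at 35.5, 36.5 and 28.8 CPM in saline. It was at 46.8, 37.3 and 38.8 CPM in Ang II and at 32.5, 30.2 and 22.2 CPM in Ang II+NaBu. Each Ang II library was above every library of both other groups, by as little as 37.3 against 36.5 CPM. Npr2, the CNP receptor, was at 44.4, 45.6 and 33.0 CPM in saline, at 38.2, 38.1 and 35.5 CPM in Ang II and at 30.7, 34.6 and 34.3 CPM in Ang II+NaBu. The saline libraries of Npr2 spanned the whole Ang II range. Npr3, the clearance receptor, was at 27.0, 182 and 33.9 CPM in saline, at 27.0, 24.7 and 18.0 CPM in Ang II and at 55.1, 35.9 and 31.2 CPM in Ang II+NaBu. As with Nppa and Corin, its highest value was in saline replicate 2, at 3.31 times the next library.

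**Figure D1:**
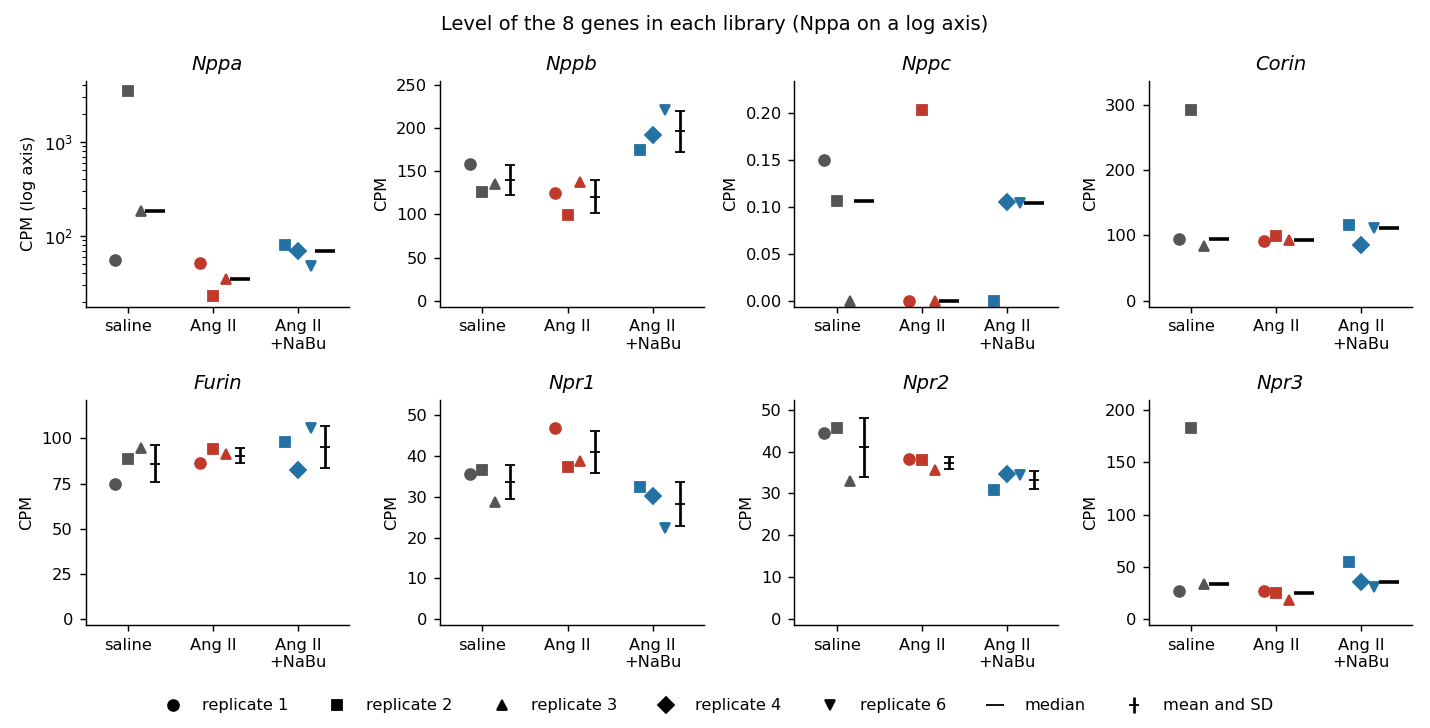
Level of each of the 8 genes (CPM, vertical axis; log axis for Nppa) in the 9 libraries by group (horizontal axis), 1 point per library with the symbol giving its replicate number. Bars are the mean and SD for Nppb, Furin, Npr1 and Npr2, and dashes are the median for the other genes. Nppb is at 175 to 221 CPM in the Ang II+NaBu libraries and at 99.9 to 159 CPM in the others, and saline replicate 2 holds the highest Nppa, Corin, Npr2 and Npr3.

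Saline replicate 2 stood high for some of these genes and not for others. Relative to the median of the other 8 libraries it held 64.8-fold more Nppa, 6.26-fold more Npr3 and 3.13-fold more Corin. The ratios were 1.3 for Npr2, 1.07 for Npr1, 0.959 for Furin and 0.847 for Nppb. Nppb was thus within the range of the other libraries in a library where Nppa was outside it. Among the atrial markers in the same library, Myl4 (an atrial myosin light chain) measured 561 CPM with 17.3 CPM as the next highest value, and Stard10 measured 62.1 CPM with 12.5 CPM as the next highest. Markers of endocardium and veins were also higher there, at a sum of 804 CPM against 315 to 415 CPM, with Plvap (a protein of fenestrated endothelium) at 17.2 CPM against 1.43 to 4.71 CPM and Vwf (von Willebrand factor) at 742 CPM against 270 to 363 CPM. Fibroblast markers summed to 4470 CPM against 2600 to 3770 CPM. The part of other tissue in the saline values was not tested. In bulk RNA, more cells of a type and more RNA per cell cannot be told apart.

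**Figure D2:**
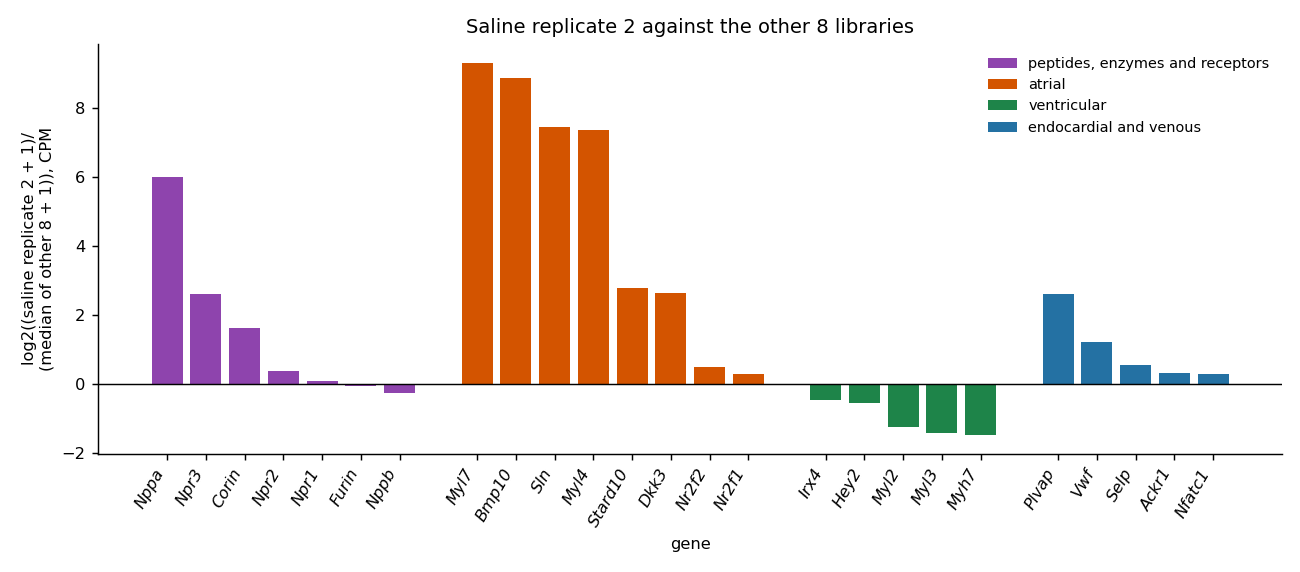
Log2 ratio of saline replicate 2 to the median of the other 8 libraries, with 1 CPM added to both (vertical axis), for 7 of the 8 genes (Nppc is left out) and 3 marker lists (horizontal axis, 1 bar per gene). Nppa (5.99), Npr3 (2.61) and Corin (1.63) lie above 0 as the atrial markers do, and the 5 ventricular markers lie below it.

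How the peptide system stood after 28 days of the hormone was read from Ang II against saline. None of the 7 genes tested was called in edgeR at an adjusted p under 0.05, in a comparison where 0% of all genes were called. At an unadjusted p under 0.05, edgeR counted 918 genes (5.94%) and DESeq2 called 60 genes (0.354%) after adjustment. The saline mean of Nppa was 1235 ± 1930 CPM and its Ang II mean 36.4 ± 14.4 CPM (SD, n = 3), at a log2 fold change of -5.09 (SE 1.28, edgeR adjusted p = 0.703). All 3 Ang II libraries were below all 3 saline libraries, by 51.5 against 55.4 CPM at the nearest. DESeq2 called Nppa (-5.07, adjusted p = 0.0193). Without saline replicate 2 the edgeR value was -1.73 (SE 0.448, edgeR adjusted p = 0.36), and without saline replicates 2 and 3, the library next highest in atrial markers, it was -0.61. Saline replicates 2 and 3 were also the highest saline libraries for Nppa itself, and the part of atrial transcripts in the difference was not tested.

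Nppb did not follow Nppa in this comparison. Its means were 139.8 ± 17.3 CPM in saline and 120.7 ± 19.0 CPM in Ang II, at -0.21 (SE 0.145, 95% interval -0.53 to 0.11, edgeR adjusted p = 0.931). Npr3 was at -1.81 (SE 0.621, edgeR adjusted p = 0.743) with all libraries and at -0.40 (edgeR adjusted p = 0.694) without saline replicate 2, and Corin went from -0.73 to 0.08 on the same step. Npr1 was the other gene whose groups did not overlap, at 0.29 (SE 0.159, edgeR adjusted p = 0.894). Groups did not overlap for 2 of these 7 genes, 1 higher and 1 lower, beside 9.9% of all genes (4.94% higher and 4.97% lower). Furin (0.07) and Npr2 (-0.14) had intervals that included 0. Without saline replicate 2, Nppb was at -0.29 (edgeR adjusted p = 0.637), Npr1 at 0.34, Furin at 0.09 and Npr2 at -0.06, and again none was called.

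Ang II+NaBu against Ang II asks what differed when butyrate was given with the hormone. Nppb rose 1.63-fold, from 120.7 ± 19.0 to 196.2 ± 23.4 CPM (SD, n = 3), at a log2 fold change of 0.70 (SE 0.145, 95% interval 0.38 to 1.02, edgeR adjusted p = 0.0469). It was the only one of the 7 genes called in edgeR with all 9 libraries. Over all genes 1.6% were called (0.647% rose and 0.957% fell), 22.4% had an unadjusted p under 0.05 and the median change was -0.025. The call was close to its threshold. It was kept in 9 of 18 alternatives, and over the 18 the value lay between 0.60 and 0.83 and the adjusted p between 0.000246 (DESeq2) and 0.207 (edgeR). It was lost without any 1 of the 6 libraries compared, where the edgeR adjusted p was between 0.112 and 0.207. It was also lost without saline replicate 1, with total-count scaling and with 1 transcript per gene.

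Npr1 lay on the other side in the same pair of groups and did not pass the test. Its means were 41.0 ± 5.11 CPM in Ang II and 28.3 ± 5.39 CPM in Ang II+NaBu, at -0.53 (SE 0.159, 95% interval -0.89 to -0.18, edgeR adjusted p = 0.0974). DESeq2, which called 12.1% of all genes, called it (-0.52, adjusted p = 0.033), and over 18 alternatives its value lay between -0.93 and -0.38. Npr3 averaged 40.7 ± 12.6 against 23.2 ± 4.72 CPM, at 0.81 (SE 0.609, edgeR adjusted p = 0.47). When only the Ang II and Ang II+NaBu libraries were fitted, the value was the same and the SE fell to 0.223 (edgeR adjusted p = 0.0482), and without saline replicate 2 it was 0.83 (SE 0.217, edgeR adjusted p = 0.0432). The share of all genes called was 11.9% and 9.43% in those fits. Npr2 was at -0.17 (SE 0.126), with no overlap between the groups.

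Nppb and Npr3 were thus higher in every Ang II+NaBu library than in every Ang II library, and Npr1 and Npr2 were lower. That is 4 of 7 genes with no overlap, beside 35.6% of all genes (18.1% higher and 17.5% lower). Nppa was at 0.86 (SE 1.09, edgeR adjusted p = 0.688), with Ang II replicate 1 (51.5 CPM) above Ang II+NaBu replicate 6 (47.7 CPM). With only these 2 groups fitted the SE of Nppa was 0.279 and its edgeR adjusted p 0.0785. Corin (0.14, SE 0.393) and Furin (0.08, SE 0.119) had intervals from -0.73 to 1.01 and from -0.19 to 0.34, which do not show that they were alike in both groups. Markers of endothelium, a tissue known to carry NPR-A, were lower along with Npr1. Their sum was 1050 to 1210 CPM with Ang II+NaBu and 1300 to 1490 CPM with Ang II, all 8 had values below 0, and 7 of 8 showed no overlap, beside the 17.5% of all genes given above. Of the 8, 1 fell (Egfl7 at -0.61, edgeR adjusted p = 0.0296), beside 0.957% of all genes. Without saline replicate 2 the count was 4 of 8, beside 9.43% of all genes called in either direction. With only these 2 groups fitted it was 4 of these 8 markers, beside 11.9%. Their part in the Npr1 value was not tested.

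**Figure D3:**
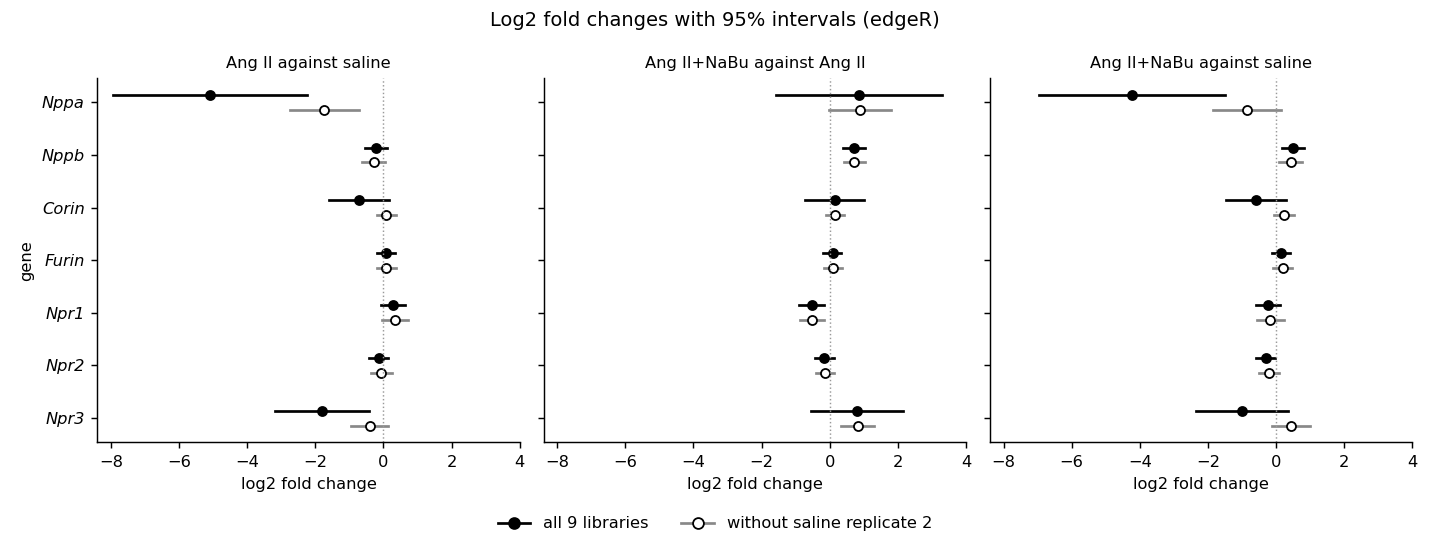
Log2 fold changes (horizontal axis) of 7 genes (vertical axis) in 3 comparisons, with 95% intervals from edgeR, from all 9 libraries (filled) and without saline replicate 2 (open). In both comparisons with saline, Nppa, Corin and Npr3 move towards or past 0 without that library, while Nppb in Ang II+NaBu against Ang II is at 0.70 with it and 0.72 without it.

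The group given both agents was then set against saline. None of the 7 genes was called in edgeR, where 5.06% of all genes were called (3.01% rose and 2.05% fell). An unadjusted p under 0.05 was reached by 24.6% of all genes. Nppb averaged 196.2 ± 23.4 against 139.8 ± 17.3 CPM, at 0.49 (SE 0.145, 95% interval 0.17 to 0.81, edgeR adjusted p = 0.0755), with no overlap between the groups. It was the only 1 of the 7 genes with no overlap, beside 28.6% of all genes (14.5% higher and 14.1% lower), and DESeq2 called it (0.51, adjusted p = 0.0108) as it did 15.6% of all genes. DESeq2 also called Nppa (-4.20, adjusted p = 0.0094), which in edgeR was at -4.23 (SE 1.23, edgeR adjusted p = 0.071) with all libraries. Nppa was called in edgeR without saline replicate 1 (-4.79, edgeR adjusted p = 0.04) and without saline replicate 3 (-4.74, edgeR adjusted p = 0.0429), where 2.61% and 8.24% of all genes were called. Without saline replicate 2 it was at -0.85 (edgeR adjusted p = 0.308), and without saline replicates 2 and 3 it was at 0.25.

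Npr3 and Corin turned direction with the same library. Npr3 was at -1.0 (SE 0.605, edgeR adjusted p = 0.341) with all libraries and at 0.43 (edgeR adjusted p = 0.348) without saline replicate 2, and Corin went from -0.59 to 0.24. Npr2 was at -0.30 (SE 0.126, edgeR adjusted p = 0.17), and without saline replicate 3, the lowest saline library for it, it was at -0.44 (edgeR adjusted p = 0.0319). The fit without saline replicate 3 called 8.24% of all genes. Npr1 was at -0.25 (SE 0.159) and Furin at 0.15 (SE 0.119). Without saline replicate 2, Nppb was at 0.43 (edgeR adjusted p = 0.138), Npr2 at -0.21, Npr1 at -0.17 and Furin at 0.19. Placed in order of group means, Nppb ran from Ang II through saline to Ang II+NaBu, and saline and Ang II did not differ beyond their spread. For Npr1 the order was Ang II+NaBu, saline, Ang II, with overlap between the first pair.

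Ratios within a library need no scaling between libraries. Transcript length cancels between libraries only where each gene keeps the same shares of its transcripts. The estimated shares of Npr1, Npr2 and Furin, given below, differed between libraries, and the part of length in their ratios was not tested. The log2 ratio of Npr3 (clearance) to Npr1 (signalling) estimated counts was -0.39, 2.32 and 0.24 in saline. It was -0.79, -0.59 and -1.11 in Ang II and 0.76, 0.25 and 0.49 in Ang II+NaBu. Ang II libraries were lowest, with no overlap with either other group. Ang II+NaBu averaged 0.50 ± 0.26 and Ang II -0.83 ± 0.26 (SD, n = 3), a difference of 1.33 with an exact two-sided permutation p of 0.1. This is the smallest p that 3 against 3 libraries can give, and it was 0.4 after Benjamini-Hochberg adjustment over the 12 ratio tests, none of which passed. The difference of Ang II from saline was -1.55 (exact permutation p = 0.1), or -0.75 without saline replicate 2, and that of Ang II+NaBu from saline was -0.22, or 0.57 without saline replicate 2.

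The ratio of Npr2 to Npr1 compares the guanylyl cyclase receptors. It was 0.32, 0.32 and 0.20 in saline and -0.29, 0.03 and -0.13 in Ang II, with no overlap (difference -0.41, exact permutation p = 0.1, or -0.39 without saline replicate 2). The Ang II+NaBu values were -0.08, 0.20 and 0.62, a range that overlapped both other groups. The ratio of Nppb to Nppa was 1.52, -4.79 and -0.46 in saline, 1.28, 2.12 and 1.98 in Ang II and 1.12, 1.47 and 2.21 in Ang II+NaBu. Ang II and Ang II+NaBu differed by -0.19 in it (exact permutation p = 0.8), with overlap between the groups. Corin to Furin was within 0.02 to 0.24 in the 6 libraries given Ang II, and at 0.33, 1.72 and -0.17 in saline.

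The 8 genes were also set beside lists of pathway genes. Factors known to bind natriuretic peptide promoters numbered 15, all tested. In Ang II+NaBu against Ang II, 14 had values above 0, with a list median of 0.20 against -0.025 over all genes, and 1 of the 15 rose, beside 0.647% of all genes. Without saline replicate 2 this was 2 of 15, beside 9.43% of all genes called in either direction. With only the 2 groups fitted it was 3 of 15, beside 11.9%. The gene called was Mef2d, a MADS-box factor of muscle, at 124, 129 and 124 CPM in Ang II and 178, 165 and 197 CPM in Ang II+NaBu (0.52, SE 0.10, edgeR adjusted p = 0.0427). Tead1, which binds the M-CAT element, had the highest value of the list at 0.55 (SE 0.485), with means of 328 ± 219 and 224 ± 132 CPM that overlapped. Nfatc4, a calcineurin target, had the lowest at -0.39 (SE 0.161, edgeR adjusted p = 0.188). Gata4, a factor of the GATA family, averaged 86.5 ± 7.01 against 68.0 ± 5.05 CPM, at 0.35 (SE 0.134, edgeR adjusted p = 0.166). It was named after its values were seen.

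Against saline, 2 of the 15 factors rose with Ang II+NaBu, Mef2d (0.52, edgeR adjusted p = 0.0262) and Mef2a (0.41, edgeR adjusted p = 0.0367), beside 3.01% of all genes. None was called with only the 2 groups fitted. When saline replicate 2 was left out, Mef2d stayed called (0.51, edgeR adjusted p = 0.0361) and Mef2a did not (0.42, edgeR adjusted p = 0.0535). Mef2a was at 153, 151 and 155 CPM in saline and 212, 191 and 210 CPM in Ang II+NaBu. The extremes of that list were Tead1 (0.92, SE 0.488) and Tbx5 (-0.39, SE 0.365), the latter a factor of atria and left ventricle at 59.0 CPM in saline replicate 2. In Ang II against saline none of the 15 was called and the median was 0, with Tead1 at 0.37 and Tbx5 at -0.57 as extremes.

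Genes linked to stretch and hypertrophy numbered 10, and not all of them are known to rise with it. Myh6 (alpha myosin heavy chain) is also among the cardiomyocyte markers below, and Myh7 among the ventricular ones. All 10 had values above 0 for Ang II+NaBu against Ang II, at a median of 0.60 beside -0.025 over all genes, and 6 showed no overlap, beside 18.1% of all genes. Of the 10, 1 rose, beside 0.647% of all genes. The gene called was Fhl1, a LIM protein of the sarcomere, at 144, 168 and 172 CPM in Ang II and 219, 259 and 241 CPM in Ang II+NaBu (0.57, SE 0.117, edgeR adjusted p = 0.0456). Leaving out saline replicate 2 gave 5 of 10 called, beside 9.43% of all genes in either direction, and fitting only the 2 groups gave 5 of 10, beside 11.9%. Markers of cardiomyocytes and of ventricle lay the same way in this comparison, with values above 0 for 5 of 6 (median 0.11, 4 with no overlap) and 4 of 5 (median 0.35, 3 with no overlap). The summed cardiomyocyte markers were at 121000 to 130000 CPM with Ang II and 133000 to 146000 CPM with Ang II+NaBu, and the ventricular ones at 15700 to 18100 and 17800 to 18400 CPM. Endothelial markers and those of smooth muscle and pericytes were below 0 for 8 of 8 each, at medians of -0.29 and -0.24. The part of these markers in the values of the stretch list was not tested. Tnni1, the slow skeletal troponin I, had the highest fitted value, but at no more than 0.494 CPM in the Ang II libraries it was too low for a fold. Myh7 (beta myosin heavy chain) had the lowest at 0.01 (SE 0.319). In Ang II against saline 9 of 10 had values below 0, at a median of -0.12, and none was called, with Myh7 at 0.31 and Tnni1 again as extremes. In Ang II+NaBu against saline 8 of 10 had values above 0 and none was called, from -0.71 for Tnni1 to 0.74 for Xirp2 (a protein of intercalated discs, SE 0.262). Tnni1 was at no more than 1.77 CPM in saline and 0.969 CPM in Ang II+NaBu, so its value rests on few counts. When saline replicate 2 was dropped, the counts were 10 of 10 below 0 for Ang II (median -0.39) and 5 of 10 above 0 for Ang II+NaBu (median 0.04, from 0.28).

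**Figure D4:**
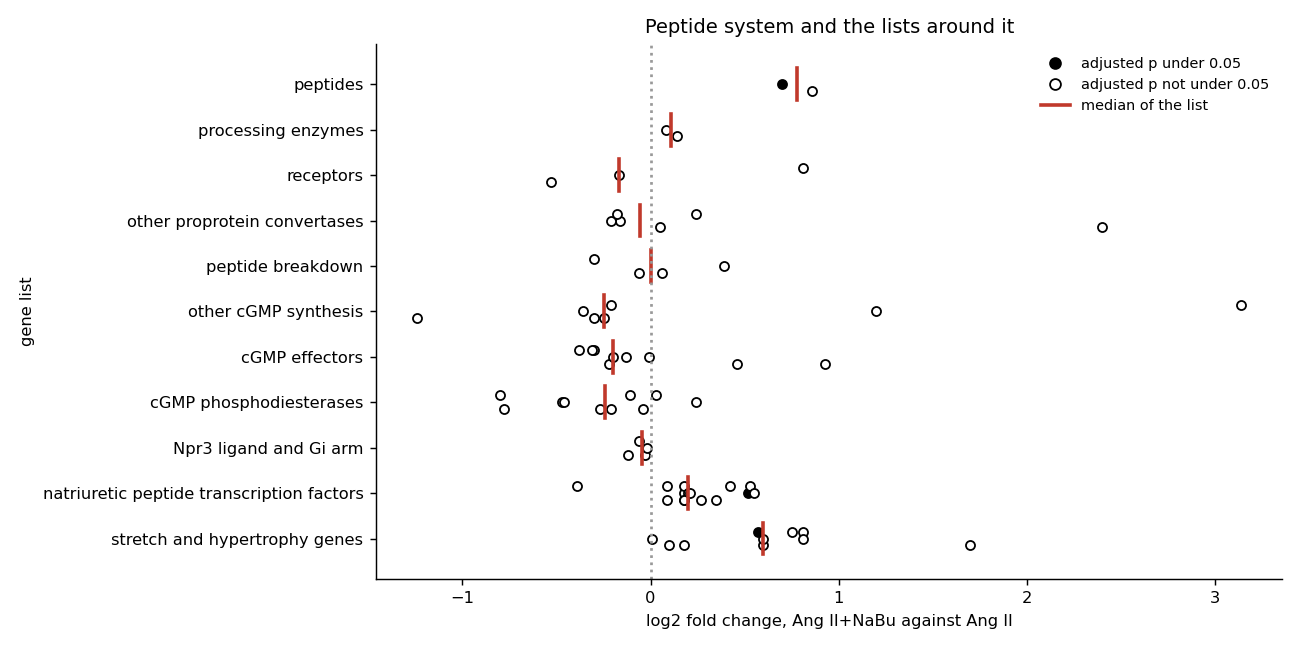
Log2 fold changes of Ang II+NaBu against Ang II (horizontal axis) for the tested genes of each list (vertical axis), 1 point per gene, filled where the edgeR adjusted p was under 0.05, with a red line at the median of each list. Filled points are Nppb (0.70), Mef2d (0.52) and Fhl1 (0.57), and the stretch list has all 10 points above 0.

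The genes downstream of the receptors showed few calls. Of 10 listed effectors of cyclic GMP signalling 9 were tested, and with all 9 libraries edgeR called none with Ang II+NaBu against Ang II (median -0.20). Pln was called there with only the 2 groups fitted (0.46, edgeR adjusted p = 0.0145), without saline replicate 2 (0.48, edgeR adjusted p = 0.0165) and in DESeq2 (0.47, adjusted p = 0.0397). Those fits called 11.9%, 9.43% and 12.1% of all genes. Against saline 1 of the 9 rose, beside 3.01% of all genes, and 1 fell, beside 2.05%. Pln (phospholamban, the brake of the calcium pump) was at 3050, 1880 and 2910 CPM in saline, 3110, 3600 and 3420 CPM in Ang II and 4590, 4440 and 4940 CPM in Ang II+NaBu, and it rose against saline by 0.83 (SE 0.171, edgeR adjusted p = 0.0305). Mrvi1, a substrate of the cyclic GMP kinase in smooth muscle, fell against saline, from 62.5 ± 7.06 to 40.3 ± 9.19 CPM (-0.63, SE 0.156, edgeR adjusted p = 0.0466), and was at -0.38 against Ang II. With saline replicate 2 left out, Pln was at 0.66 (edgeR adjusted p = 0.0198) and Mrvi1 at -0.56 (edgeR adjusted p = 0.0886). Smooth muscle and pericyte markers lay the same way as Mrvi1, below 0 for 8 of 8 against saline (median -0.46) and 8 of 8 against Ang II (median -0.24). Dropping saline replicate 2 left 6 of 8 below 0 against saline (median -0.15). Their sum was 1340 to 1850 CPM in saline, 1400 to 1500 CPM in Ang II and 1160 to 1450 CPM in Ang II+NaBu, and their part in the Mrvi1 value was not tested. Kcnma1, a potassium channel subunit, was the other extreme against Ang II (0.93, SE 0.584), and with Ang II against saline the extremes were Pln (0.37) and Kcnma1 (-1.53), neither called.

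All 10 listed phosphodiesterases were tested, and edgeR with all 9 libraries called none in any comparison. DESeq2 called Pde3a with Ang II+NaBu against Ang II (0.26, adjusted p = 0.0474) and against saline (0.26, adjusted p = 0.0345), where it called 12.1% and 15.6% of all genes. Against Ang II, Ang II+NaBu gave values below 0 for 8 of 10, at a median of -0.24. Pde1c was the lowest (-0.80, SE 0.344) and Pde3a the highest (0.24, SE 0.0949), at 358, 351 and 359 CPM against 271, 316 and 315 CPM. In Ang II against saline the values ran from -0.31 for Pde3b to 0.92 for Pde11a, and in Ang II+NaBu against saline from -0.45 for Pde1b to 0.71 for Pde11a. Pde11a was at no more than 0.848 CPM in saline, with 0.0532 CPM in saline replicate 2, too low for its folds to be read. In Ang II it was at 2.47, 0.465 and 0.3 CPM. Other makers of cyclic GMP numbered 8, of which 7 were tested, and edgeR with all 9 libraries called none. With only Ang II and Ang II+NaBu fitted, Gucy1a2, a subunit of soluble guanylyl cyclase, was called lower (-0.36, edgeR adjusted p = 0.0305) and Nos2 higher (edgeR adjusted p = 0.0146). That fit called 11.9% of all genes. Leaving out saline replicate 2, Nos2 was called (edgeR adjusted p = 0.0489), and DESeq2 called Nos1 with Ang II against saline (adjusted p = 0.0392). The shares of all genes called were 9.43% and 0.354%. Their extremes against Ang II were Nos2 and the guanylyl cyclase Gucy2c (-1.24, SE 0.425). Nos2, inducible nitric oxide synthase, was at 1.40, 2.41 and 1.39 CPM with Ang II+NaBu and at most 0.277 CPM with Ang II, with 2.53 CPM in saline replicate 2, and its Ang II level was too low for a fold. In Ang II against saline the extremes were Gucy2c (0.42) and Nos1 (-2.51), and in Ang II+NaBu against saline Nos2 (0.89) and Nos1 (-1.30), with Nos1 at 7.93 CPM in saline replicate 2. Nos2 was at 0 and 0.231 CPM in saline replicates 1 and 3, too low for its fold against saline to be read.

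In the remaining lists edgeR with all 9 libraries called no gene in any comparison. Among 4 tested peptide-degrading enzymes of 6 listed, Ide (insulin-degrading enzyme, which also cleaves ANP) was the highest with Ang II+NaBu against Ang II, at 117 ± 14.0 against 89.6 ± 2.39 CPM (0.39, SE 0.102, edgeR adjusted p = 0.0782), and Dpp4 the lowest (-0.30). Ide was called in that comparison with only the 2 groups fitted (edgeR adjusted p = 0.0348), without saline replicate 2 (0.41, edgeR adjusted p = 0.0302) and in DESeq2 (0.40, adjusted p = 0.00833), and by DESeq2 against saline as well (0.31, adjusted p = 0.0443). The shares of all genes called were 11.9%, 9.43% and 12.1% in the first 3 of these fits and 15.6% in DESeq2 against saline. Mme, which encodes neprilysin, was the highest in both comparisons with saline (0.54 for Ang II and 0.47 for Ang II+NaBu), and Anpep the lowest (-0.37 and -0.31). Among 6 tested convertases other than Furin, Pcsk7 was between -0.21 with Ang II+NaBu against Ang II and 0.01 with Ang II against saline, and Pcsk6 was at 0.04 with Ang II+NaBu against saline. Pcsk1 was at the other end of all 3 comparisons, at no more than 1.54 CPM in any library and listed at 0 in 2 Ang II libraries, so no fold is given. Of 5 genes of the Npr3 arm, 4 were tested, and their values stayed between -0.16 for Plcb3 (Ang II+NaBu against saline) and 0.11 for Gnai1 (Ang II against saline). Gnai2, an inhibitory G protein subunit, was the highest for Ang II+NaBu against Ang II, at -0.02. Osteocrin (Ostn), a ligand of NPR-C, did not pass the filter, with at most 0.105 CPM in any library.

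Transcripts of the same gene were estimated with unequal steadiness. Nppb was mainly NM_031545.1, at 85.5% to 88.5% of its estimated counts in Ang II, 89.3% to 91.3% in saline and 91.8% to 93.3% in Ang II+NaBu, with no overlap between any of the groups. No test was made of this share, and how many other genes have shares that separate in this way was not counted. It is therefore not read as a change of isoform. For Npr1 the share of NM_012613.1 ran from 0% in Ang II+NaBu replicate 4 to 98.9% in Ang II replicate 2, and within saline from 4.31% to 97.7%. For Furin the share of NM_019331.1 ran from 0.503% to 87.6%, again with both extremes of saline far apart (0.839% and 87.6%). For Npr2 the share of NM_053838.1 ran from 42.5% to 86.7% within Ang II and from 40.5% to 85.8% within Ang II+NaBu. Within saline it ran from 71.3% to 87.0%. Shares this unequal between replicates cannot be read as a change of isoform, so the gene totals were used for these receptors and enzymes. Corin and Npr3 were steadier, with XM_008770139.2 at 77.4% to 95.8% and XM_006232045.3 at 90.9% to 100% of the gene.

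**Figure D5:**
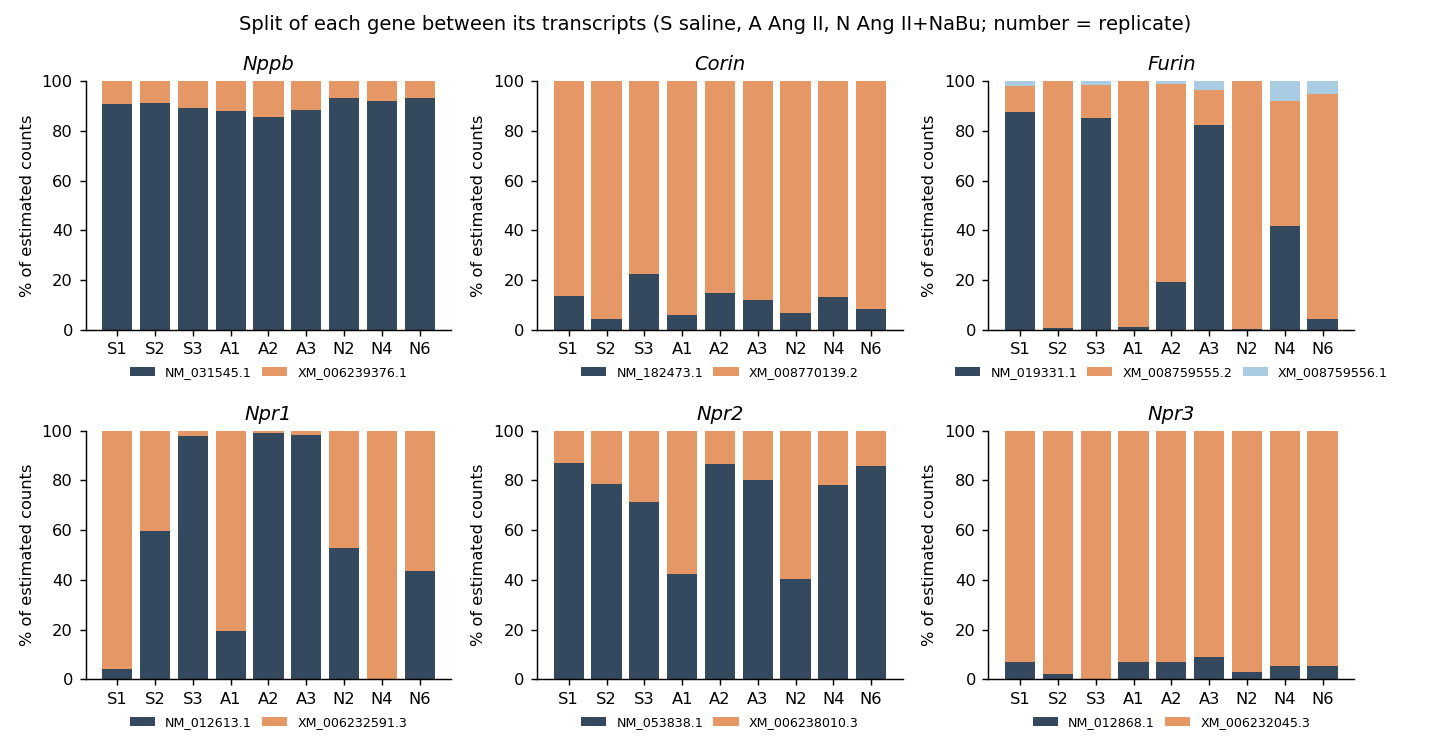
Share of each gene's estimated counts (vertical axis, percent) assigned to each of its transcripts (colours) in the 9 libraries (horizontal axis; S saline, A Ang II, N Ang II+NaBu) for the 6 genes with more than 1 transcript. Nppb, Corin and Npr3 keep 1 main transcript in every library, while Npr1, Npr2 and Furin switch between libraries of the same group.

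The genes whose pattern over the 9 libraries was most like that of a peptide or of Npr3 were found among 10160 tested genes with a mean of at least 5 CPM, by Pearson correlation of log2(CPM + 1). For Nppb they were Socs6 (r = 0.956), Commd9 (0.937), Arl1 (0.925), Arih2 (0.921) and Cep19 (0.92), and these values were 0.924 to 0.956 without saline replicate 2. For Nppa they were Lyve1 (0.991), Stard10 (0.983), Hamp (0.982), Myl4 (0.981) and Neb (0.978), which included 2 of the atrial markers. Without saline replicate 2 these values for Nppa fell to 0.843 to 0.965. For Npr3 they were Dcn (0.981), Cgnl1 (0.96), Clmp (0.959), Apoe (0.956) and Tbx5 (0.949), and without saline replicate 2 these fell to 0.754 to 0.931. Dcn (decorin) is a fibroblast marker. Among the 8 genes themselves, Nppa and Npr3 correlated at 0.93 over 9 libraries and 0.59 without saline replicate 2, and Nppa and Corin at 0.85 and -0.32. Nppb and Npr1 correlated at -0.73 and -0.72. All of these points share libraries and their scaling.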

How the data were processed

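For each group the authors deposited a single table of estimated counts, per the file headers with a line for every transcript and a column for every library. The deposited saline values are of the same kind (their unit was recorded as other because stray line-end characters sit in the last column, and these were removed). The submitters' processing notes name the aligner Bowtie (version 0.12.2) and a mouse build, mm8; the IDs themselves belong to rat RefSeq transcripts. The sources used here name no counting tool and no strand setting, so reads shared by overlapping genes cannot be assigned with certainty. Because a table equals a group, table processing and treatment cannot be told apart. The Ang II+NaBu columns are numbered 2, 4 and 6.

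Values were rounded to whole numbers and summed by gene name. edgeR 4.0.16 (quasi-likelihood test, TMM scaling, filterByExpr, prior count 0.125, 1 fit of all 9 libraries, R 4.3.3) was run on 15467 genes, with Benjamini-Hochberg adjustment over all of them and a threshold of 0.05. Ratios used log2((a + 4)/(b + 4)) of estimated counts and an exact two-sided permutation test over libraries. Alternatives were DESeq2 1.42.0, other scalings, no filter, 1 transcript per gene, counts divided by 4, fewer groups, the replicate block and leaving out libraries. The scripts were tested on simulated data. The 8 genes and the lists were chosen with earlier results of these data known. Genes named from a pathway list are those called and the highest and lowest of each comparison, and the genes most like Nppb, Nppa and Npr3 are the 5 highest correlations. Gata4, Gucy1a2 and Ostn fall outside this rule. List genes called only in the alternatives are not all named.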

Additional observations from a re-analysis of the deposited data

How the results depend on the processing

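Of the log2 fold changes of the 8 genes recomputed under the alternatives, 366 kept their direction and side of the threshold, 9 lost and 9 gained a call and 15 changed sign. In Ang II against saline, leaving out 1 library moved Corin between -1.03 and 0.08 (without saline replicate 2) and Furin between -0.02 (without saline replicate 1) and 0.14. Corin was at 0.01 without saline replicates 2 and 3 and at 0.09 with only the 2 groups and saline replicate 2 left out (an alternative chosen after seeing the data). In Ang II+NaBu against Ang II, Furin was at -0.03 with total-count scaling, -0.03 with the highest transcript per gene and 0.00 (without Ang II+NaBu replicate 6) to 0.17 leaving out 1 library. In Ang II+NaBu against saline, Furin was at -0.02 with the highest transcript, and Nppa, Corin and Npr3 were at 0.25, 0.15 and 0.59 without saline replicates 2 and 3. Leaving out 1 library gave -0.89 to 0.24 for Corin and -1.41 to 0.43 for Npr3, both highest without saline replicate 2, with the same 0.24 and 0.43 when only those 2 groups were fitted. Among the ratios, leaving out 1 library gave -0.5 to 0.05 for Nppb to Nppa and 0.00 to 0.1 for Corin to Furin in Ang II+NaBu against Ang II. Against saline the ranges were -0.22 to 0.13 for Npr2 to Npr1, -0.78 to 0.57 for Npr3 to Npr1 and -0.9 to 0.05 for Corin to Furin. There, the highest transcript gave 0.17 for Npr2 to Npr1 and 0.05 for Npr3 to Npr1, which was 0.89 without saline replicates 2 and 3. The cause was not tested.

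Counts of genes called with Ang II against saline were 0, but 60 in DESeq2, 1 with only the 2 groups, 11 without saline replicates 2 and 3, 5 with the 2 groups and saline replicate 2 left out, and 0 to 7 leaving out 1 library. DESeq2 called 1 member. With Ang II+NaBu against Ang II the 248 genes became 4 with total-count scaling, 1508 in DESeq2, 3 with the highest transcript, 1802 with only the 2 groups, 1695 without saline replicates 2 and 3, and 1 (without Ang II replicate 1) to 1482 (without saline replicate 2) leaving out 1 library. The 1 member called became 0, 2, 0 and 2 in the first 4 of these, and 0 to 2 leaving out 1 library. With Ang II+NaBu against saline the 782 genes became 411, 2000, 33, 9 and 109 in the same 5 settings, 142 with the 2 groups and saline replicate 2 left out, and 6 (without Ang II+NaBu replicate 6) to 1303 (without saline replicate 3) leaving out 1 library. DESeq2 called 2 members there, and leaving out 1 library gave 0 to 2. Upper-quartile scaling gave 87 risen and 209 fallen genes against Ang II and 383 and 396 against saline, where TMM gave 100 and 148, and 465 and 317.

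Libraries of the same replicate number in saline and Ang II did not deviate together (r = -0.072, -0.065 and -0.019), which gave no sign of pairing by number. These values cannot settle it, because deviations were taken from means of 3 libraries and saline replicate 2 stood apart. With the replicate block, 0 genes and 0 members were called, Nppa was at -2.89 and Npr3 at -1.25. The Ang II+NaBu columns share only the number 2 with the other groups, which is too few for a block. Depth limits Nppc, which had at most 7 estimated counts in a library.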
